A study of Mus musculus with 6 samples.

Results

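The genes described here are those of 7 solute carrier families that carry amino acids across membranes, Slc1, Slc3, Slc6, Slc7, Slc36, Slc38 and Slc43. They were taken by symbol from the count table, which gave 58 of its 17491 genes. One of them, Slc7a6os, is in the set by its name alone: it is the gene on the strand opposite Slc7a6 and is no transporter. The cultures came from mesenchymal stem cells of wild-type mouse bone marrow, taken from tibia and femur. Both groups were kept to day 7 in a bone-forming medium that held ascorbic acid, dexamethasone and β-glycerophosphate. There were 3 verapamil-treated libraries and 3 control libraries. Verapamil blocks L-type voltage-gated calcium channels. Mouse strain, animal age, verapamil dose and length of exposure are not stated in the labels. Nor do they say if replicates are separate cultures or animals. The p-values therefore cover the spread among these libraries alone, which may be technical.

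Amino acid transporters set which amino acids a cell can take up, exchange or release. Members of the Slc1 and Slc38 families mostly draw amino acids in with sodium. The light chains of the Slc7 family reach the cell surface as dimers with the heavy chain Slc3a2 and mostly exchange one amino acid for another, while the cationic branch of Slc7 carries arginine and lysine without a heavy chain. Members of Slc36 and some of Slc38 sit on lysosomes, Slc43 carries large neutral amino acids, and Slc6 carries glycine, proline, taurine, creatine and several neurotransmitters. Osteoblasts make collagen, a protein rich in glycine and proline, and glutamine and proline uptake by Slc1a5 and Slc38a2 is known to matter for their differentiation. Many of these genes are known targets of ATF4, the transcription factor that is made when amino acids run short.

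Library totals ran from 18.2 M to 21.7 M estimated reads, and 15737 to 15939 genes were detected in each. The labelled cell type was checked against its markers. Osteoblast markers summed to 30904 to 31448 CPM, read counts scaled to a fixed library size, in verapamil libraries and to 51478 to 65485 CPM in control libraries, and 13 of 16 were lower with verapamil. Macrophage and monocyte markers were present as well, at 17782 to 19975 CPM in verapamil libraries and 10008 to 12508 CPM in control libraries, with 14 of 21 tested higher and 2 lower. Markers of both kinds of cell were thus present, with the macrophage markers Ly6c2 and Timd4 at or near 0 in both groups and lymphocyte markers at 0.988 to 1.44 CPM in verapamil and 0.658 to 0.748 CPM in control libraries. Adipocyte markers summed to 934 to 1082 CPM in verapamil and 731 to 948 CPM in control libraries. Osteoclast markers summed to 334 to 359 CPM in verapamil and 366 to 396 CPM in control libraries, and chondrocyte markers to 104 to 146 CPM and 286 to 668 CPM. In bulk RNA fewer cells of a type and less RNA per cell cannot be told apart. The spread among libraries was wider in controls, with a biological coefficient of variation of 4.45% among verapamil libraries and 12.4% among control libraries. Genes of the hypoxia response, a list added after the data were seen, summed to 1651 to 1921 CPM in verapamil libraries and to 4165, 6372 and 2515 CPM in control replicates 1, 2 and 3.

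Of the 58 members, 37 had enough reads to be tested. The other 21 had at most 13.03 reads in any library and between 1 and 35.6 reads over all 6. Of the tested members, 11 were higher with verapamil, 9 were lower and 17 did not pass the test at an adjusted p of 0.05. Over all 13366 genes tested, 31.7% were called, 15.4% higher and 16.3% lower. With libraries scaled by their totals alone, 63.7% of all calls were higher, beside 48.5% here, and the members split into 11 higher and 9 lower. The called share among the tested members was 54.1%, with a median log2 fold change of -0.04 beside 0.01 over all genes. Of these 20 calls, 11 held without each library in turn. Leaving out verapamil replicate 2 left 11 calls, 5 higher and 6 lower, or 29.7% of members beside 16.6% of all genes. The members called higher numbered 7 without verapamil replicate 1 and 7 without verapamil replicate 3. Over all genes, rises numbered 1027 and 1232 in those 2 fits, beside 2055 with all libraries. The called share there was 43.2% and 40.5% of members, beside 16.7% and 19.4% of all genes. Groups did not overlap in 23 tested members, 12 higher and 11 lower, beside 49.6% of all genes, 25.2% higher and 24.4% lower. Slc6a12, counted among the 11 rises, reached the cutoff of the filter on low counts in 3 verapamil and 0 control libraries. Slc7a3 reached it in 3 verapamil and 2 control libraries, and Slc6a7 in 1 verapamil and 3 control libraries. On the genome, 17 of the tested members overlap another RefSeq gene and 5 overlap a coding gene, so their counts are less certain.

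**Figure D1:**
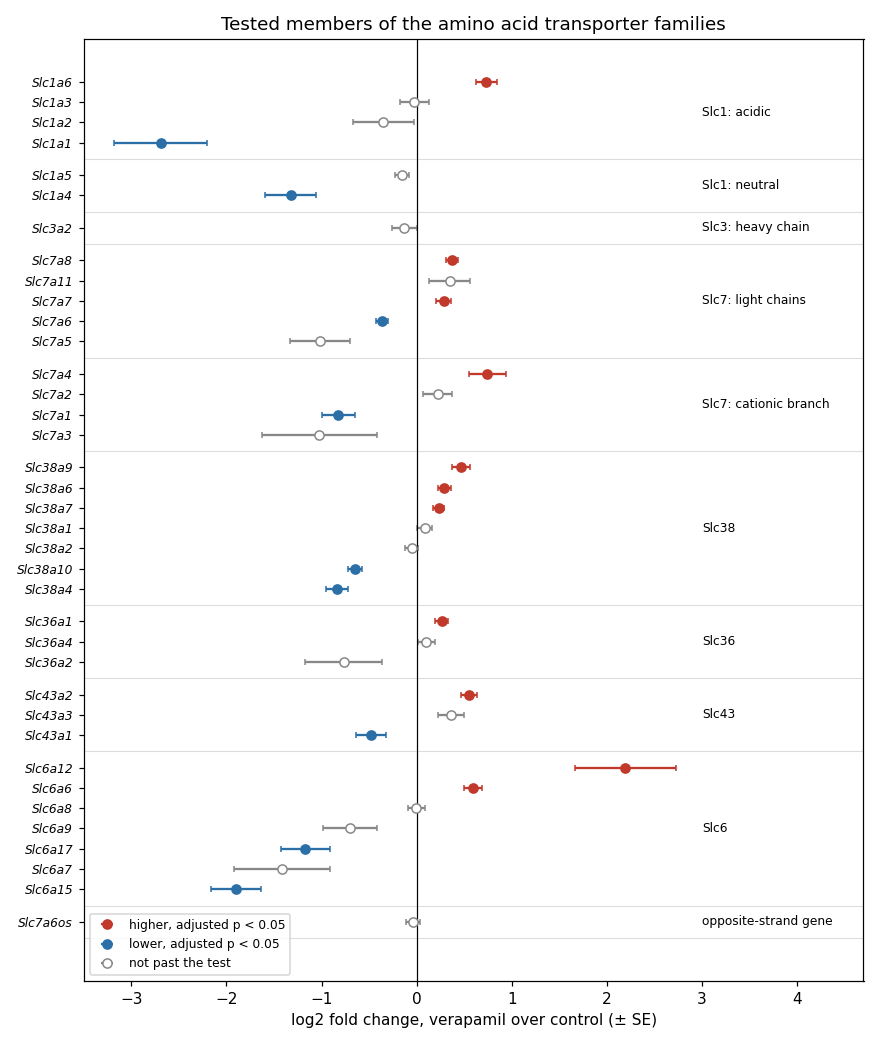
Log2 fold change of verapamil over control, with its SE, for the 37 tested members, grouped by family and role; filled points passed the test and open points did not. Falls reach -2.69 in Slc1a1, and most rises lie between 0.23 and 0.75, apart from Slc6a12 at 2.19.

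Summed over all members, levels were 2408, 2459 and 2370 CPM in verapamil replicates 1, 2 and 3, and 2369, 2440 and 2362 CPM in control replicates 1, 2 and 3, so the groups overlapped. On the scale of TPM, a transcript's share of a library scaled by length and to a fixed total, the sums were 1368, 1380.2 and 1344 TPM in verapamil replicates and 1412, 1398 and 1443 TPM in control replicates. On that scale every verapamil library was below every control library, by a small margin, and no test was run on the sums. On the TPM scale 31 members reached a mean of at least 1 TPM and 7 reached 50 TPM. Slc6a6, the taurine transporter, was the most abundant member in verapamil libraries, at 200.3 ± 14.6 TPM, against 134 ± 21.8 TPM in control libraries (SD, n = 3 each). Slc38a10 was the most abundant in control libraries, at 148.6 ± 3.55 TPM in verapamil and 234 ± 10.1 TPM in control libraries. In control libraries Slc6a6 and the heavy chain Slc3a2 (143 ± 21.0 TPM) did not differ in level beyond their spread, nor did Slc38a2 (117 ± 15.3 TPM) and Slc1a5 (112 ± 11.6 TPM). In verapamil libraries Slc38a2 (111 ± 4.28 TPM) and Slc43a2 (107.8 ± 3.86 TPM) did not differ in level beyond their spread, nor did Slc1a5 (99.6 ± 6.33 TPM) and Slc6a8 (94.0 ± 7.75 TPM).

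**Figure D2:**
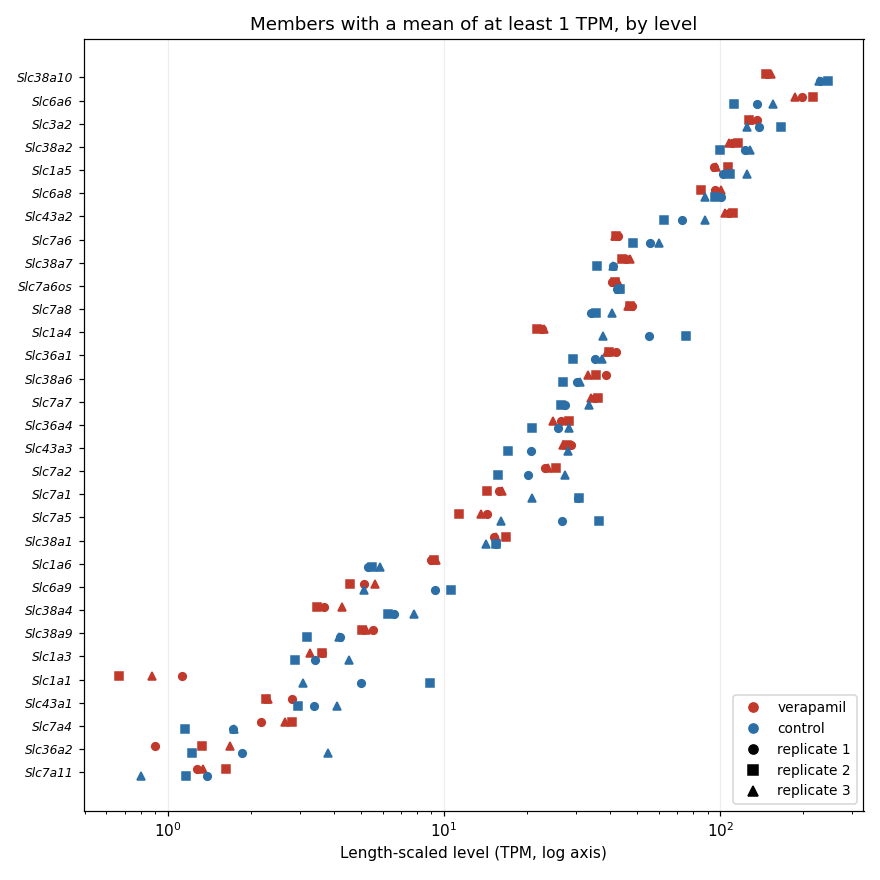
Length-scaled level in TPM, on a log axis, of the 31 members with a mean of at least 1 TPM, with each library as a point, verapamil above control in each row. Slc38a10 and Slc6a6 head the order and Slc7a11 ends it, and in Slc1a1 and Slc1a4 the verapamil points lie far to the left of the control points.

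The largest fall among the tested members was that of Slc1a1, in the Slc1 family. Slc1a1 (Entrez 20510, chromosome 19, 28835135 to 28913960 in GRCm38), which takes up glutamate, aspartate and cysteine, stood at 1.65, 0.992 and 1.30 CPM in verapamil replicates 1, 2 and 3 and at 7.28, 13.9 and 4.36 CPM in control replicates 1, 2 and 3. Every verapamil library was below every control library, and control replicate 2 was the highest of all. It fell 6.46-fold, or by -2.69 ± 0.49 SE in log2 (adjusted p = 0.00789), and the log2 fold change was -2.16 without control replicate 2. Slc1a4 (Entrez 55963, chromosome 11, 20302180 to 20332713), which exchanges alanine, serine, cysteine and threonine, stood at 34.5, 33.5 and 35.3 CPM in verapamil replicates and at 83.3, 120.9 and 54.8 CPM in control replicates. The verapamil values lay close together and the control values spread widely above them. It fell 2.50-fold (-1.32 ± 0.27 SE, adjusted p = 0.0128). Without control replicate 2 its log2 fold change was -1.01 (adjusted p = 0.0165), and without control replicate 3 it was -1.57 (adjusted p = 3.40e-04).

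Slc1a5, the glutamine exchanger that is the closest relative of Slc1a4, did not pass. It was at 102.7, 115.6 and 104.8 CPM in verapamil replicates and 108.6, 122.9 and 128.2 CPM in control replicates, and the groups overlapped (-0.15 ± 0.08 SE, adjusted p = 0.159). Slc1a4 therefore made up 19.1%, 16.9% and 19.2% of the length-scaled sum of both genes in verapamil replicates 1, 2 and 3, and 35.1%, 40.9% and 23.1% in control replicates 1, 2 and 3. These shares were computed after the values were seen. Among the glutamate transporters, Slc1a6 rose to 7.12, 7.26 and 7.46 CPM in verapamil replicates, against 4.13, 4.59 and 4.41 CPM in control replicates (0.73 ± 0.11 SE, adjusted p = 0.00204). Its groups were tight and far apart, at a low level. Slc1a6 is best known from Purkinje neurons, and it overlaps the gene Ccdc105 on the genome, so reads of both could be mixed where counting ignored strand. Slc1a3, the glial glutamate transporter, was at 5.90, 5.91 and 5.35 CPM in verapamil replicates and 5.45, 4.91 and 7.03 CPM in control replicates and did not pass (adjusted p = 0.922), nor did Slc1a2 (-0.35 ± 0.32 SE, adjusted p = 0.437).

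**Figure D3:**
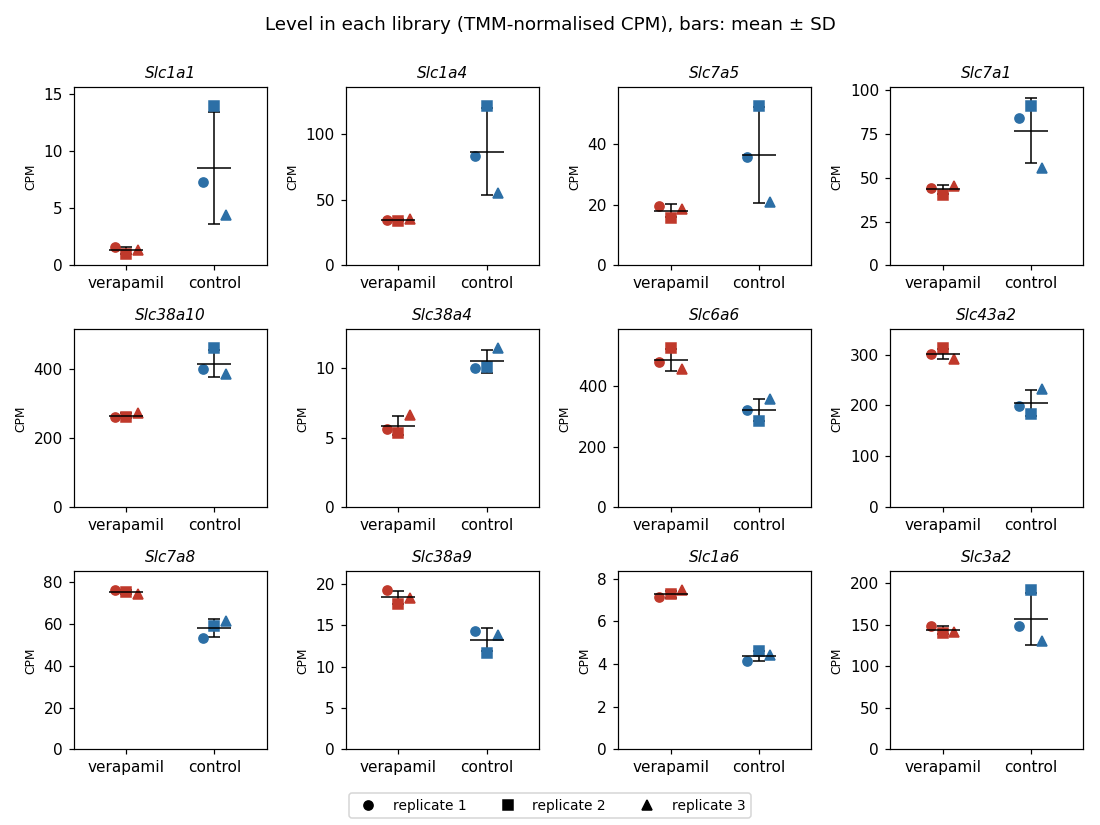
TMM-normalised CPM in each library for 12 members, verapamil left and control right in each panel, with marker shapes for replicates and bars for mean ± SD. In Slc1a1, Slc1a4, Slc7a5 and Slc7a1 the control libraries spread widely above the verapamil libraries, while in Slc38a10, Slc6a6, Slc43a2, Slc7a8 and Slc1a6 both groups are compact and apart.

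Start-site sequences of 3 members are shown because textbook knowledge ties them to a regulator of amino acid supply and because the members moved differently: Slc1a4 fell, Slc36a1 rose and Slc7a11 did not pass. Each runs 5′ to 3′ on the gene's strand, from 250 bases before the start to 50 after it, as RefSeq gives it for GRCm38.p6. Capitals mark matches, on either strand, to the amino acid response element bound by ATF4 (TGATGNAA), to the antioxidant response element bound by NRF2 (TGACNNNGC) and to the lysosomal gene element bound by TFEB and its relatives (TCACGTGA). The motifs were chosen with the expression values known.
Slc1a4 (chr11:20332664-20332963, minus strand): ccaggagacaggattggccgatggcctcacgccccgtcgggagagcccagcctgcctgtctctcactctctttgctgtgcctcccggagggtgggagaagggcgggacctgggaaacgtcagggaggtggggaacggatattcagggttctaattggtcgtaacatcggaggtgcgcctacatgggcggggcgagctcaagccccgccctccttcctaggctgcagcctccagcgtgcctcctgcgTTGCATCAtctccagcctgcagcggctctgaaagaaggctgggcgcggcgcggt
Slc7a11 (chr3:50443564-50443863, minus strand): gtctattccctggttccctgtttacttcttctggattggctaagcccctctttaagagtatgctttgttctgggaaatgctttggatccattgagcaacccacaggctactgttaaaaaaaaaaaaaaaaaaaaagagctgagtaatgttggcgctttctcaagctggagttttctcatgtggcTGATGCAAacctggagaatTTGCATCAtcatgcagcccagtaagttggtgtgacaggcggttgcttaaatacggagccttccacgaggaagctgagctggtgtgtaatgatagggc
Slc36a1 (chr11:55204090-55204389, plus strand): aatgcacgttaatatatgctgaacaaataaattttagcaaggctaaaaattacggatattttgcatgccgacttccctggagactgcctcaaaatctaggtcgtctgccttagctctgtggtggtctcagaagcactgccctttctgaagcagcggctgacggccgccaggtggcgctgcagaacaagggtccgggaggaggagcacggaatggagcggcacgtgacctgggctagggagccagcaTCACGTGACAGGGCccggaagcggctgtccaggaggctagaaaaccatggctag
The match in Slc1a4 is an ATF4 element read on the reverse strand, TTGCATCA, whose first base lies 4 bases before the start. Slc7a11 holds 2 ATF4 elements facing each other, at 66 and 47 bases before the start. In Slc36a1 the lysosomal element begins 4 bases before the start and runs into an antioxidant element that begins at base 2 after it, so the capitals there mark both. Of 32851 start-site windows in the table, 3.97% held the ATF4 element, 12.4% the antioxidant element and 0.974% the lysosomal element. Windows were found for 41 members, 62 windows in all, of which 4, 9 and 1 held these elements. The ATF4 element was in windows of Slc1a4, Slc7a7 and Slc7a11. A match describes the letters and is not evidence of binding.

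The heavy chain did not pass the test, and its partners differed among themselves. Slc3a2, which anchors the light chains at the cell surface, stood at 148.6, 139.8 and 141.1 CPM in verapamil replicates and 148.6, 191.3 and 130.3 CPM in control replicates. The groups overlapped and it did not pass (-0.13 ± 0.13 SE, adjusted p = 0.482). Without control replicate 2 the log2 fold change of Slc3a2 was 0.03. Among the light chains, Slc7a8 and Slc7a7 rose, Slc7a6 fell, and Slc7a5 and Slc7a11 did not pass.

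Slc7a8, which exchanges neutral amino acids over a wide range of sizes, was at 76.2, 75.2 and 74.4 CPM in verapamil replicates, against 53.3, 59.2 and 61.7 CPM in control replicates (0.37 ± 0.07 SE, adjusted p = 0.00424). The groups were separate, and the call held without each library in turn. Slc7a7, which exports arginine and lysine and is the light chain known from macrophages, kidney and gut, was at 31.2, 32.3 and 30.4 CPM in verapamil and 24.0, 24.7 and 28.3 CPM in control replicates (0.28 ± 0.08 SE, adjusted p = 0.0259). Its call was lost without control replicate 1 and without each verapamil library in turn (adjusted p = 0.0652 to 0.105), and it overlaps the gene Oxa1l on the genome. Slc7a7 and Slc7a8 both lie on chromosome 14, at 54369442 to 54420068 and 54722215 to 54781886 in GRCm38. Slc7a6, which also exchanges cationic against neutral amino acids, fell to 62.4, 61.8 and 60.9 CPM in verapamil replicates, against 80.3, 74.5 and 83.6 CPM in control replicates (-0.37 ± 0.06 SE, adjusted p = 0.00313). Its groups were separate, and Slc7a6os nearby on chromosome 8 did not pass (-0.04 ± 0.07 SE, adjusted p = 0.737).

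Slc7a5, the main importer of leucine and other large neutral amino acids, lay at 19.7, 15.6 and 18.8 CPM in verapamil replicates and 35.98, 52.6 and 21.0 CPM in control replicates. All verapamil libraries were below all control libraries, with control replicate 3 only just above them. It did not pass the test (-1.02 ± 0.32 SE, adjusted p = 0.0528). Without control replicate 3 it passed at -1.30 (adjusted p = 0.00150), and without control replicate 2 it was -0.67 (adjusted p = 0.137). It also passed by DESeq2 (adjusted p = 0.0317). Slc7a11, which imports cystine for glutathione, was at 4.63, 5.86 and 4.85 CPM in verapamil replicates and 4.93, 4.43 and 2.76 CPM in control replicates. The groups overlapped and it did not pass (0.35 ± 0.22 SE, adjusted p = 0.253).

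Within the summed length-scaled level of the light chains known to pair with Slc3a2, the shares shifted. The sum itself was 141, 138 and 137 TPM in verapamil replicates 1, 2 and 3 and 146, 148 and 151 TPM in control replicates 1, 2 and 3. Slc7a8 held 33.9%, 34.0% and 33.9% in verapamil replicates, against 23.4%, 23.9% and 26.9% in control replicates. Slc7a6 held 30.2%, 30.4% and 30.2% in verapamil replicates, against 38.4%, 32.7% and 39.7% in control replicates. Slc7a8 was thus the most abundant light chain in each verapamil library and Slc7a6 in each control library. Slc7a5 held 10.1%, 8.20% and 9.93% in verapamil replicates and 18.3%, 24.6% and 10.6% in control replicates. These shares were computed after the values were seen and carry no test.

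**Figure D4:**
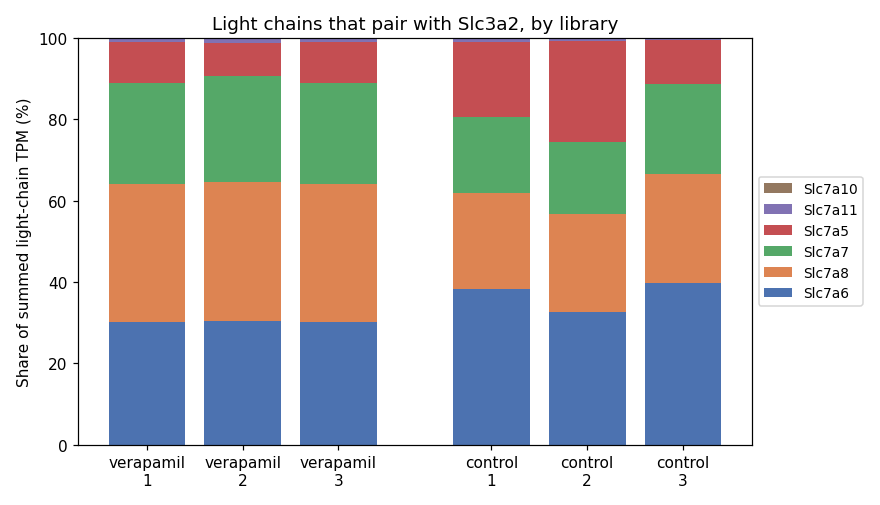
Share of the summed TPM of the light chains that pair with Slc3a2, in percent, as stacked bars for each library, verapamil left and control right. Slc7a8 fills about 34% of each verapamil bar and 23.4% to 26.9% of the control bars, and Slc7a5 fills 24.6% in control replicate 2 and 10.6% in control replicate 3.

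In the cationic branch, the general arginine and lysine importer Slc7a1 fell. It was at 44.2, 40.4 and 45.5 CPM in verapamil replicates and 83.8, 90.6 and 55.6 CPM in control replicates, with separate groups (-0.82 ± 0.17 SE, adjusted p = 0.0129). The call was lost without control replicate 2 (adjusted p = 0.0532) and without verapamil replicate 2 (adjusted p = 0.0519). Slc7a2, the cationic transporter that feeds arginine to activated macrophages, was at 71.3, 78.9 and 74.1 CPM in verapamil replicates and 61.2, 50.7 and 80.4 CPM in control replicates. The groups overlapped and Slc7a2 did not pass (0.22 ± 0.15 SE, adjusted p = 0.316), but it did without control replicate 3, at 0.41 (adjusted p = 0.00668). Slc7a4, a member of this branch whose substrate is not settled, rose at a low level to 2.76, 3.61 and 3.41 CPM in verapamil replicates, against 2.16, 1.55 and 2.11 CPM in control replicates (0.75 ± 0.19 SE, adjusted p = 0.0207). Its call was lost without verapamil replicate 2 or 3 (adjusted p = 0.0886 and 0.0754). Slc7a3 was near 1 CPM or below on average in both groups and did not pass (adjusted p = 0.237), but it did without control replicate 3, at -1.51 (adjusted p = 0.00708).

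The Slc38 family split by member. Slc38a10 (Entrez 72055, chromosome 11, 120103951 to 120151351), an abundant and little studied member, stood at 262.6, 261.6 and 273.9 CPM in verapamil replicates and 402.1, 460.8 and 386.4 CPM in control replicates. The groups were far apart beside their spread, and Slc38a10 had the smallest adjusted p of the members (-0.65 ± 0.08 SE, adjusted p = 8.17e-04). Slc38a4, which takes up neutral amino acids in liver and placenta, fell to 5.64, 5.32 and 6.60 CPM in verapamil replicates, against 9.96, 10.0 and 11.4 CPM in control replicates (-0.84 ± 0.12 SE, adjusted p = 0.00179). Both calls held without each library in turn. The sodium-coupled glutamine and proline importers next to it on chromosome 15 did not pass. Slc38a2 was at 200.9, 211.7 and 196.6 CPM in verapamil replicates and 220, 190.3 and 221.9 CPM in control replicates (-0.05 ± 0.07 SE, adjusted p = 0.608), and its log2 fold change was 0.02 with libraries scaled by their totals alone. Slc38a1 was at 43.1, 47.6 and 44.0 CPM in verapamil replicates and 42.98, 45.8 and 38.4 CPM in control replicates (0.08 ± 0.08 SE, adjusted p = 0.448).

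The members that rose in this family were at low or middle levels and changed little. Slc38a9, the lysosomal arginine transporter that signals to mTORC1, was at 19.2, 17.6 and 18.2 CPM in verapamil replicates and 14.3, 11.6 and 13.8 CPM in control replicates (0.47 ± 0.10 SE, adjusted p = 0.00832). Its groups did not overlap, and its call held without each library in turn. Slc38a6 rose to 58.9, 54.7 and 51.1 CPM in verapamil replicates, against 45.7, 43.5 and 45.2 CPM in control replicates (0.29 ± 0.07 SE, adjusted p = 0.0131). The call was lost without verapamil replicate 1 or 2 (adjusted p = 0.0662 and 0.0562), and it overlaps the gene Trmt5. Slc38a7, a lysosomal exporter of glutamine and asparagine, was at 59.1, 57.5 and 61.4 CPM in verapamil replicates and 52.2, 48.7 and 50.6 CPM in control replicates (0.23 ± 0.06 SE, adjusted p = 0.0173). It was lost without each verapamil library in turn (adjusted p = 0.0510 to 0.0813).

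Slc36 and Slc43 held further rises. Slc36a1, the proton-coupled exporter of small neutral amino acids from lysosomes whose start site is printed above, was at 86.1, 81.6 and 80.6 CPM in verapamil replicates and 70.8, 63.4 and 72.9 CPM in control replicates (0.26 ± 0.07 SE, adjusted p = 0.0193). Its groups did not overlap, but the call was lost without control replicate 1 and without each verapamil library in turn (adjusted p = 0.0508 to 0.0962). Slc36a4 (0.10 ± 0.09 SE, adjusted p = 0.413) and Slc36a2 (-0.77 ± 0.40 SE, adjusted p = 0.182) did not pass, though Slc36a2 did without control replicate 2, at -1.03 (adjusted p = 0.0397). Slc43a2 (Entrez 215113, chromosome 11, 75529915 to 75577575), which carries large neutral amino acids by facilitated diffusion, rose to 300.5, 312 and 291 CPM in verapamil replicates, against 199, 184 and 233 CPM in control replicates (0.55 ± 0.09 SE, adjusted p = 0.00287). The lowest verapamil library was well above the highest control library. Its close relative Slc43a1 was at 3.40, 2.75 and 2.79 CPM in verapamil replicates and 3.99, 3.74 and 4.69 CPM in control replicates (-0.48 ± 0.16 SE, adjusted p = 0.0486). That fall is marginal: it was kept without control replicate 2 and lost without each of the other 5 libraries (adjusted p = 0.0624 to 0.157). It was also lost with libraries scaled by their totals alone (adjusted p = 0.101), with upper quartile factors (adjusted p = 0.0578) and by DESeq2 (adjusted p = 0.102). With no filter on low counts (adjusted p = 0.0583) and with replicate number as a block (adjusted p = 0.0968) it was lost too. Slc43a3, which carries purine nucleobases and not amino acids and lies beside Slc43a1 on chromosome 2, was at 29.0, 28.2 and 27.2 CPM in verapamil replicates and 20.5, 18.1 and 27.0 CPM in control replicates (0.36 ± 0.13 SE, adjusted p = 0.0741). It passed without control replicate 3 (adjusted p = 0.00147).

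In the Slc6 family, 10 of 17 members were too low to test. Slc6a6 (Entrez 21366, chromosome 6, 91684048 to 91759063), the taurine transporter, had the highest level in CPM of the members in verapamil libraries and was below Slc38a10 in each control library. It stood at 476.9, 523.1 and 453.7 CPM in verapamil replicates and 321.6, 283.2 and 356.4 CPM in control replicates. It rose 1.51-fold (0.60 ± 0.10 SE, adjusted p = 0.00285), the groups were separate, and the call held without each library in turn. Slc6a8, the creatine transporter, was at 148.3, 132.6 and 156.3 CPM in verapamil replicates and 153.5, 155.9 and 129.4 CPM in control replicates, which overlapped (0.00 ± 0.09 SE, adjusted p = 0.975). Slc6a9, a glycine transporter that overlaps the gene Ccdc24 on the genome, was at 6.96, 6.23 and 7.73 CPM in verapamil replicates and 12.4, 15.1 and 6.61 CPM in control replicates. Control replicate 3 lay among the verapamil libraries, and Slc6a9 did not pass (-0.70 ± 0.29 SE, adjusted p = 0.103), but it did without that library, at -0.98 (adjusted p = 6.91e-04), and by DESeq2 (adjusted p = 0.0296).

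The remaining Slc6 calls were at low levels. Slc6a15, which takes up branched-chain amino acids and proline, fell to 0.585, 0.451 and 0.719 CPM in verapamil replicates, against 2.63, 1.92 and 2.02 CPM in control replicates (-1.90 ± 0.26 SE, adjusted p = 0.00154). Its groups were separate and the call held without each library in turn. Slc6a17, a vesicular carrier of neutral amino acids in neurons, fell to 0.585, 0.496 and 0.764 CPM in verapamil replicates, against 1.46, 1.44 and 1.29 CPM in control replicates (-1.17 ± 0.25 SE, adjusted p = 0.0100). Without verapamil replicate 2 it did not pass (adjusted p = 0.0513). Slc6a12, which carries betaine and GABA, was below the mean level set for naming and was named after its values were seen. It had 18.2, 37.0 and 12.0 reads in verapamil replicates and 7, 3 and 4 reads in control replicates (2.19 ± 0.53 SE, adjusted p = 0.0159), and it did not pass without verapamil replicate 2 (adjusted p = 0.0593). Slc6a12 entered the test only through the verapamil libraries, where it was high, so this call is no support for a rise. Slc6a7, a proline transporter of neurons, was at 0.517 ± 0.437 CPM in verapamil and 1.35 ± 0.370 CPM in control libraries and did not pass (adjusted p = 0.0649). Without verapamil replicate 1, the 1 verapamil library that reached the filter's cutoff, it passed (adjusted p = 0.0188). Slc6a7 entered the test only through the control libraries, where it was high, so that pass is no support for a fall.

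The control libraries were not alike in these genes. Of the 9 members that fell, 4 (44.4%) had their highest control value in replicate 2, as did 60.8% of all genes called lower, and 5 (55.6%) had their lowest control value in replicate 3, as did 63.4% of all genes called lower. Of the 11 that rose, 8 (72.7%) had their lowest control value in replicate 2, as did 56.2% of all genes called higher. Summed macrophage markers were at 11454, 10008 and 12508 CPM in control replicates 1, 2 and 3, and so were lowest in the same library. The ratio of the highest to the lowest library had a median of 1.13 among verapamil libraries and 1.26 among controls over the tested members, beside 1.10 and 1.19 over all genes. The part that macrophage RNA or the hypoxia response played in the members' changes was not tested.

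**Figure D5:**
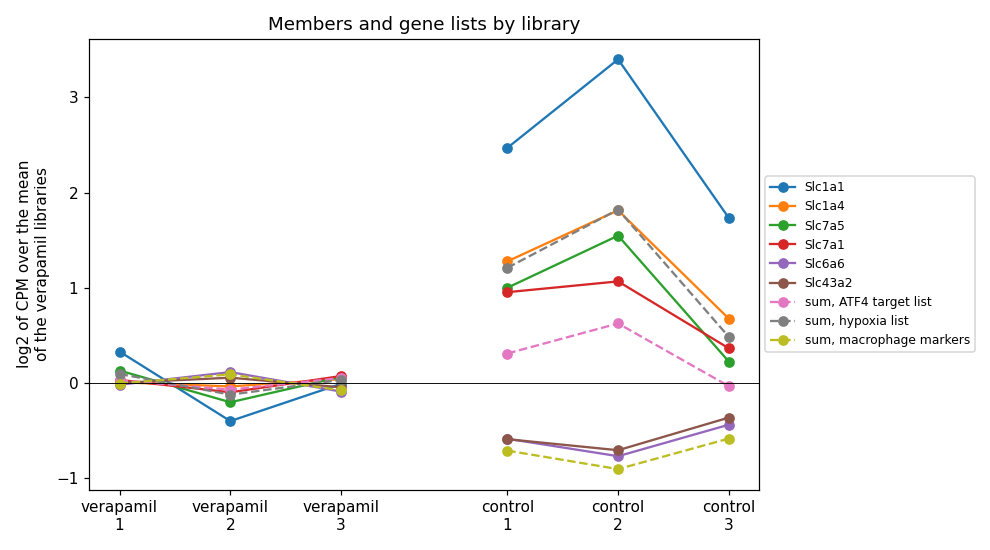
Log2 of each library's CPM over the mean of the verapamil libraries, for 6 members (solid lines) and the summed CPM of 3 gene lists (dashed lines), verapamil left and control right. In control libraries Slc1a1, Slc1a4, Slc7a5, Slc7a1, the ATF4 target list and the hypoxia list peak in replicate 2 and are lowest in replicate 3, while Slc6a6, Slc43a2 and macrophage markers lie below 0 and are lowest in replicate 2.

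Genes outside these families that handle or sense amino acids were read from lists chosen with earlier results of these data known. Over all genes tested 31.7% were called. By list, the called share was 34.2% for ATF4 targets, 38.9% for glutamine and glutamate, and 33.3% for serine, glycine and proline. It was 46.2% for cystine and glutathione, 53.3% for arginine and polyamines and 52.6% for transporters outside the 7 families. For mTORC1 sensing it was 26.3%, for branched-chain breakdown 38.1% and for creatine and taurine 16.7%. In the list of ATF4 targets, the genes switched on when amino acids are short, 10 of 38 tested genes fell, 3 rose and 25 did not pass, with a median log2 fold change of -0.37. Falls numbered 30 without control replicate 3, 9 without control replicate 2, and 4 without control replicate 1. With verapamil replicates 1, 2 and 3 left out in turn the number was 3, 3 and 5. Over all genes, falls numbered 2180 with all libraries and 2590, 2534 and 1455 without control replicates 3, 2 and 1. They numbered 1222, 1226 and 1393 as verapamil replicates 1, 2 and 3 were left out in turn. These all-gene counts are also the ones to read beside the falls of the lists below. Summed, the list stood at 2650, 2476 and 2696 CPM in verapamil replicates 1, 2 and 3 and at 3223, 4012 and 2538 CPM in control replicates 1, 2 and 3, so control replicate 3 lay among the verapamil libraries. Atf4 itself was at 144.9, 134 and 156 CPM in verapamil replicates and 188.5, 239 and 144.6 CPM in control replicates, and did not pass (-0.40 ± 0.17 SE, adjusted p = 0.123). Asns, the asparagine synthetase, did not pass either (-0.67 ± 0.27 SE, adjusted p = 0.103). Without control replicate 3 both passed (adjusted p = 0.00400 and 0.00250), as they did by DESeq2 (adjusted p = 0.0409 and 0.0104).

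Those of the list that fell most were the secreted glycoprotein gene Stc2, at 0.880 ± 0.350 CPM in verapamil and 8.05 ± 5.26 CPM in control libraries (-3.15 ± 0.63 SE, adjusted p = 0.0123), Trib3, a brake on ATF4 signalling (-1.75 ± 0.52 SE), the lipoprotein receptor gene Vldlr (-1.47 ± 0.35 SE) and the mitochondrial folate enzyme gene Aldh1l2 (-1.22 ± 0.36 SE). Stc2 also passed without each library in turn. Vldlr did not pass without verapamil replicate 1, 2 or 3 (adjusted p = 0.0556 to 0.0730). Trib3 and Aldh1l2 did not pass without each library in turn but control replicate 3 (adjusted p = 0.0773 to 0.153). Their steepest control values were again those of replicate 2 for Trib3, at 5.10, 3.52 and 5.26 CPM in verapamil replicates and 14.4, 26.4 and 6.20 CPM in control replicates. The genes of the list that rose were Ddit4 (0.26), Gdf15 (0.47) and Jdp2 (0.32), named after their values were seen, and Ddit4 was lost without control replicate 1 and without each verapamil library in turn.

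Enzymes that make or use the carried amino acids moved both ways. The lists share genes, so their counts are not independent. Gclc and Gclm are in both the glutamine and the glutathione list. Aldh18a1 and Pycr1 are in both the ATF4 target list and the serine, glycine and proline list. Chac1 is in both the ATF4 target list and the glutathione list. For glutamine and glutamate metabolism, 4 of 18 genes rose and 3 fell, with a median of -0.11. Falls numbered 5 without control replicate 2, 6 without control replicate 3 and 5 by DESeq2. Glul, the glutamine synthetase, rose to 456 ± 13.6 CPM in verapamil libraries, against 309.8 ± 44.1 CPM in control libraries (0.56 ± 0.10 SE, adjusted p = 0.00432). The pyrimidine synthesis gene Cad fell (-0.39 ± 0.06 SE). Among genes of cystine and glutathione supply, 5 of 13 rose and 1 fell, with a median of 0.18. Both subunits of the enzyme that starts glutathione synthesis rose: Gclm to 68.0 ± 2.75 CPM in verapamil libraries, against 32.9 ± 4.12 CPM in control libraries (1.05 ± 0.09 SE, adjusted p = 2.83e-04), and Gclc by 0.95 on the log2 scale. The aminopeptidase gene Anpep rose too (0.78 ± 0.06 SE), and the glutathione-cleaving Chac1 was the 1 that fell (-1.08 ± 0.26 SE), a call lost when control replicate 1 or verapamil replicate 1 or 2 was left out (adjusted p = 0.0649 to 0.0761). The cystine importer Slc7a11 itself did not pass, as given above.

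For serine, glycine and proline synthesis, 3 of 15 genes fell and 2 rose, with a median of -0.08. Mthfd1l, a mitochondrial folate enzyme (-1.71 ± 0.43 SE), Pycr1, which makes proline (-0.92 ± 0.19 SE), and Aldh18a1, which acts before it (-0.69 ± 0.19 SE), fell, and the proline-degrading Aldh4a1 rose (0.36 ± 0.09 SE). The call of Pycr1 held without each library in turn. Mthfd1l was lost without verapamil replicate 1, 2 or 3 (adjusted p = 0.0573 to 0.0853), Aldh18a1 without each library but control replicate 3 (adjusted p = 0.0543 to 0.103), and Aldh4a1 without verapamil replicate 1 or 2 (adjusted p = 0.0654 and 0.0592). The list had 7 falls without control replicate 3 and 1 without each verapamil library in turn. In arginine and polyamine metabolism, 5 of 15 genes rose and 3 fell. Arg1, the arginase of the urea cycle and of macrophages, was at 8.52 ± 3.78 CPM in verapamil and 44.8 ± 34.4 CPM in control libraries (-2.40 ± 0.65 SE, adjusted p = 0.0336), a call lost without each library in turn but control replicate 3 (adjusted p = 0.0519 to 0.112). Ass1, which remakes arginine from citrulline, rose (0.63 ± 0.07 SE), as did the polyamine oxidase gene Paox (0.52 ± 0.08 SE), and the spermidine synthase gene Srm fell (-0.47 ± 0.09 SE). The count that fell in that list was 1 without control replicate 1 and without each verapamil library in turn.

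Of 19 tested amino acid and peptide transporters outside the 7 families, 10 rose, 0 fell and 9 did not pass by edgeR, with a median of 0.20. Without control replicate 1 and without each verapamil library in turn, 6 rose. Rises over all genes numbered 1010 to 1232 in those fits, beside 2055 with all libraries. In that list 0 genes fell by DESeq2 as well, and 0 were lower at an unadjusted p under 0.05 in edgeR. Slc15a3, which carries peptides and histidine out of lysosomes, rose to 20.5 ± 0.986 CPM in verapamil libraries, against 12.3 ± 2.87 CPM in control libraries (0.74 ± 0.16 SE, adjusted p = 0.0100). The aromatic amino acid transporter Slc16a10 (0.71 ± 0.15 SE), the lysosomal Mfsd12 (0.69 ± 0.06 SE) and Cln3 (0.40 ± 0.06 SE) rose as well. For amino acid sensing by mTORC1, 7 of 38 genes rose, 3 fell and 28 did not pass, with a median of 0.05. The rises numbered 4, 4 and 5 as verapamil replicates 1, 2 and 3 were left out in turn. Rragd, a GTPase that brings mTORC1 to lysosomes, rose to 23.2 ± 1.54 CPM in verapamil libraries, against 11.7 ± 0.426 CPM in control libraries (0.98 ± 0.08 SE, adjusted p = 2.51e-04), and Fnip2 (0.76 ± 0.10 SE) and Lamtor4 (0.41 ± 0.07 SE) rose too. Nprl2 (0.36 ± 0.12 SE) was lost without each library but control replicates 2 and 3 (adjusted p = 0.0974 to 0.156). The 3 that fell were Mios, Seh1l and Gcn1, named after their values were seen. Without verapamil replicate 1, 2 or 3 the count that fell was 1, and 0 fell with libraries scaled by their totals alone, where 11 rose.

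For branched-chain amino acid breakdown, 8 of 21 genes rose and 0 fell by edgeR or DESeq2, with a median of 0.22 and 1 gene, Bcat1, lower at an unadjusted p under 0.05. In edgeR 1 gene of the list fell with DESeq2 size factors, with the filter of 5 CPM and without control replicate 2. These rises were small, and their number hung on the libraries used, as it did over all genes. In the list 3 rose without control replicate 1 and 12 without control replicate 3. As verapamil replicates 1, 2 and 3 were left out in turn, 2, 3 and 4 rose. Over all genes 2055 rose with all libraries, 1216 without control replicate 1 and 2452 without control replicate 3. The all-gene rises numbered 1027, 1010 and 1232 as verapamil replicates 1, 2 and 3 were left out in turn. The first enzyme of the pathway, Bcat2, was at 67.0 ± 1.43 CPM in verapamil and 53.3 ± 4.59 CPM in control libraries (0.33 ± 0.07 SE, adjusted p = 0.00953), and was lost without verapamil replicate 1 (adjusted p = 0.0534). Ppm1k (0.50 ± 0.14 SE), Ivd (0.39 ± 0.13 SE) and Pcca (0.36 ± 0.11 SE) rose, but none of these 3 passed without control replicate 1 or without verapamil replicate 1 or 2 (adjusted p = 0.0897 to 0.151). For creatine and taurine synthesis, Gamt, which makes creatine, was the 1 of 6 genes that rose (0.51 ± 0.11 SE, adjusted p = 0.0106). Macrophage markers, 14 of 21 higher with summed levels of 17782 to 19975 CPM in verapamil and 10008 to 12508 CPM in control libraries, were higher in the same libraries as the transporter and breakdown genes that rose, and their part in those rises was not tested.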

How the data were processed

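RNA-seq libraries were made from total RNA with a SMARTER mRNA-seq kit, per the labels' protocols. The authors deposited 1 table of estimated counts, named read counts per the file headers, for 17491 genes and 6 libraries. They are not scaled to depth or gene length, and 67.7% of the values are not whole. The build is GRCm38 (mm10), per the submitters' processing notes. The sources used here name no aligner, counting tool, annotation or strand setting. It is therefore not known if reads of overlapping genes were told apart. Each column was matched to its library by the label's short name.

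Estimated counts were rounded. Genes were filtered with filterByExpr (minimum count 10, minimum total 15), which left 13366, and libraries were scaled with TMM. Verapamil was compared with control with edgeR 4.0.16 in R 4.3.3, by the robust quasi-likelihood test with Benjamini-Hochberg adjustment over all tested genes and a threshold of 0.05. Each SE is the size of the log2 fold change divided by the root of F. Levels are TMM-normalised CPM. TPM used the longest coding GENCODE transcript of each symbol, found for 16509 genes and all 58 members, and all members matched a RefSeq gene by Entrez ID. The fit was tested on simulated data with known changes. Those data had the same spread in both groups, so the test does not cover the wider spread among control libraries. They also held far fewer changed genes than were called here, so it does not cover changes of that breadth either.

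The members, lists and tests were chosen with earlier results of these data known. Values in each library are given for members past the test with a mean of at least 1 CPM (up to 14 rises and 14 falls) and for 18 members taken whether or not they passed. From each pathway list up to 4 genes past the test with the largest change are named, besides Asns, Trib3, Atf4, Glul and Arg1, and 1 further gene of that rule is not reported here. Alternatives were DESeq2 size factors, upper quartile factors, library totals alone, no filter, a filter of 5 CPM in 3 libraries, DESeq2 1.42.0, limma-voom (limma 3.58.1), a block on replicate number, and fits that each leave out 1 library.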

Additional observations from a re-analysis of the deposited data

How the results depend on the processing

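The 20 members called by edgeR kept their direction under the 14 alternatives wherever they could be fitted, and 7 members that did not pass did so under at least 1 alternative. The filter of 5 CPM left out 6 called members, which then have no value. Leaving out 1 library moved the members called between 11 and 24, higher between 5 and 13 and lower between 6 and 11. The same gave 2236 to 5042 calls over all genes, 1010 to 2452 higher and 1222 to 2590 lower, and 34 to 93 calls in the pathway lists, 26 to 49 higher and 8 to 44 lower. The pathway lists had 20 falls, against 13 with no filter on low counts.

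Replicate numbers did not pair the libraries: same-numbered libraries deviated from their group means with correlations of 0.01, -0.17 and -0.13. With the replicate number as a block, 2953 genes were called, 1364 of them higher, 16 members were called and the pathway lists had 12 falls. The block lost the calls of Slc7a4, Slc38a7, Slc7a7 and Slc43a1 (adjusted p = 0.0538 to 0.0968).

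Changes of sign were seen in 5 members that did not pass. Slc6a8 was at 0.012 with upper quartile factors and 0.078 with library totals alone, and between -0.089 and 0.056 as each library was left out. With library totals alone Slc1a3 was at 0.051, Slc38a2 at 0.023 and Slc7a6os at 0.045. As each library was left out, Slc3a2 ran from -0.25 to 0.032, Slc1a3 from -0.13 to 0.14 and Slc7a6os from -0.067 to 0.0042. Low members such as Slc6a12 and Slc6a7 are limited by read number.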
